A study of Mus musculus with 20 samples.

Results

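The subject is 102 mouse genes of protein kinases and protein phosphatases and the m6A marks on their messenger RNAs in cerebellum, hippocampus and cortex. They were chosen by symbol: all listed genes whose symbol begins with Prk, Camk, Mapk, Map2k, Map3k, Map4k, Cdk and a digit, Cdkl, Csnk, Dyrk, Stk, Mark1 to Mark4, Gsk3, Ppp, Ptpn, Ptpr or Dusp, leaving out Prkce, Camk2a, Camkk2, Ppp3ca, Ptprz1 and Cdk5r1. They made up 102 of the 3731 genes with an edited site in any region and held 887 of 25978 edited positions. The symbols also took in regulatory subunits, the kinase inhibitors Camk2n1 and Camk2n2, and 4 proteins named after a MAP kinase that are scaffolds or binding partners, such as Mapk8ip2 and Mapkbp1.

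N6-methyladenosine (m6A) is a chemical mark on messenger RNA, a methylated adenosine that reader proteins with a YTH domain bind, and it is known to lie mostly around stop codons and in 3′ untranslated regions. Protein kinases attach phosphate to serine, threonine or tyrosine residues and protein phosphatases remove it, so that the balance of the opposing enzymes sets the state of receptors, channels and cytoskeletal proteins. At synapses, calcium entering a spine activates protein kinase C and, through calmodulin, both the CaM kinases and the phosphatase calcineurin, while protein phosphatase 1 is held at its substrates by targeting subunits.

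All mice carried a fusion transgene and received 20 mg/kg tamoxifen daily for 5 days by intraperitoneal injection; tissue was collected 7 days after the last dose. APOBEC1-YTH fuses a cytidine deaminase to the m6A-binding domain, so that cytidines next to an m6A are read as uridines by RNA sequencing. The bulk poly(A) libraries of APOBEC1-YTH mice numbered 4 each from whole cerebellum, hippocampus and cortex, with the same 4 animal numbers in every region. Libraries of APOBEC1-YTHmut mice, the background control for edits in site calling, numbered 3, 2 and 3 from these regions. The sources used here do not give the age of the mice or the promoter and cell type that drive the transgene. Each region was given as 1 list of sites with a single editing level each, read as the percent of edited reads over the region's APOBEC1-YTH libraries; no listed level was below 1%. The lists hold no value per library and no read depth, so no replicate error and no test is given for any difference, and the SDs below are over sites of a gene, which are not replicates. A site that is not listed is not shown to be unmethylated, since detection also needs enough transcript and reads. In whole tissue, fewer cells of a type and less RNA per cell cannot be told apart.

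The region labels were compared with lists of marker genes. The 12 cerebellar markers had 189 sites in the cerebellar list, 5 in the hippocampal list and 11 in the cortical list. The 6 hippocampal markers had 1, 43 and 11 sites in these lists, and the 7 cortical markers had 0, 5 and 35. Each list thus held most sites of its own markers, though 7 of the 12 cerebellar, 5 of the 6 hippocampal and 6 of the 7 cortical markers had any site there. The marker lists were chosen with earlier results of these data known, so these counts are no independent check of the labels. Over all genes the lists held 11391 sites in cerebellum, 13461 in hippocampus and 17878 in cortex.

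Kinase and phosphatase transcripts carried edited sites in all regions, and most of these sites sat on a few densely edited genes. They had 334 sites in cerebellum, 534 in hippocampus and 633 in cortex, which were 2.93%, 3.97% and 3.54% of the sites of each list. At least 1 site was listed for 65 genes in cerebellum (63.7% of 102, exact 95% interval 53.6 to 73.0), 69 in hippocampus (67.6%, 57.7 to 76.6) and 93 in cortex (91.2%, 83.9 to 95.9). Over all 3731 genes these shares were 59.7%, 68.3% and 84.8%. Genes with 10 or more sites numbered 14 in cerebellum, 20 in hippocampus and 21 in cortex. They held 58.1%, 77.9% and 67.8% of the kinase and phosphatase sites, against 54.1%, 55.4% and 58.5% for all genes. At the other end, 18 genes in cerebellum (27.7%), 18 in hippocampus (26.1%) and 26 in cortex (28.0%) had a single site, against 35.9%, 35.2% and 33.7% of all genes.

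Sites were seen in all 3 regions for 51 of the 102 genes (50%; 43.1% of all genes). Cortex alone listed 19 genes, which is 18.6% of the 102 and close to the background of 17.4% of all genes. Cerebellum alone listed 7 genes, 6.86% against a background of 7.75%. Hippocampus alone listed 2 genes, 1.96% against a background of 5.23%. The 7 genes of cerebellum were Ppp1r17, Ptprr, Ppp1r1b, Ptprm, Stk17b, Prkar2a and Ppp2r1b, and those of hippocampus were Cdk13 and Dusp8. The 19 of cortex had 1 to 4 sites each. They included Dyrk1a, a kinase whose gene has an extra copy in human Down syndrome, Prkaa2, a catalytic subunit of AMP-activated kinase, and Csnk1e, a casein kinase of the circadian clock, with 1, 1 and 2 sites. Genes listed in a single region were thus mostly genes with few sites, with Ppp1r17 and Ptprr as exceptions. Hippocampus and cortex together, without cerebellum, listed 16 genes (15.7%, against 17.7% of all genes), cerebellum and cortex 7 (6.86%, against 6.62%), and cerebellum and hippocampus 0 (against 2.25%).

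Cerebellum had fewer sites than cortex in 77 of the 100 kinase and phosphatase genes listed in either region, more in 14 and equal numbers in 9. Over all genes, 65.4% had fewer and 22.7% more. Against hippocampus, cerebellum had fewer sites in 53 of 83 genes and more in 20, where all genes had 52.0% fewer and 34.9% more. Hippocampus had fewer sites than cortex in 60 of 95 genes (63.2%) and more in 19 (20%), near the 60.1% and 21.8% of all genes. The plot of sites per gene shows how unlike single genes were in this respect.

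**Figure D1:**
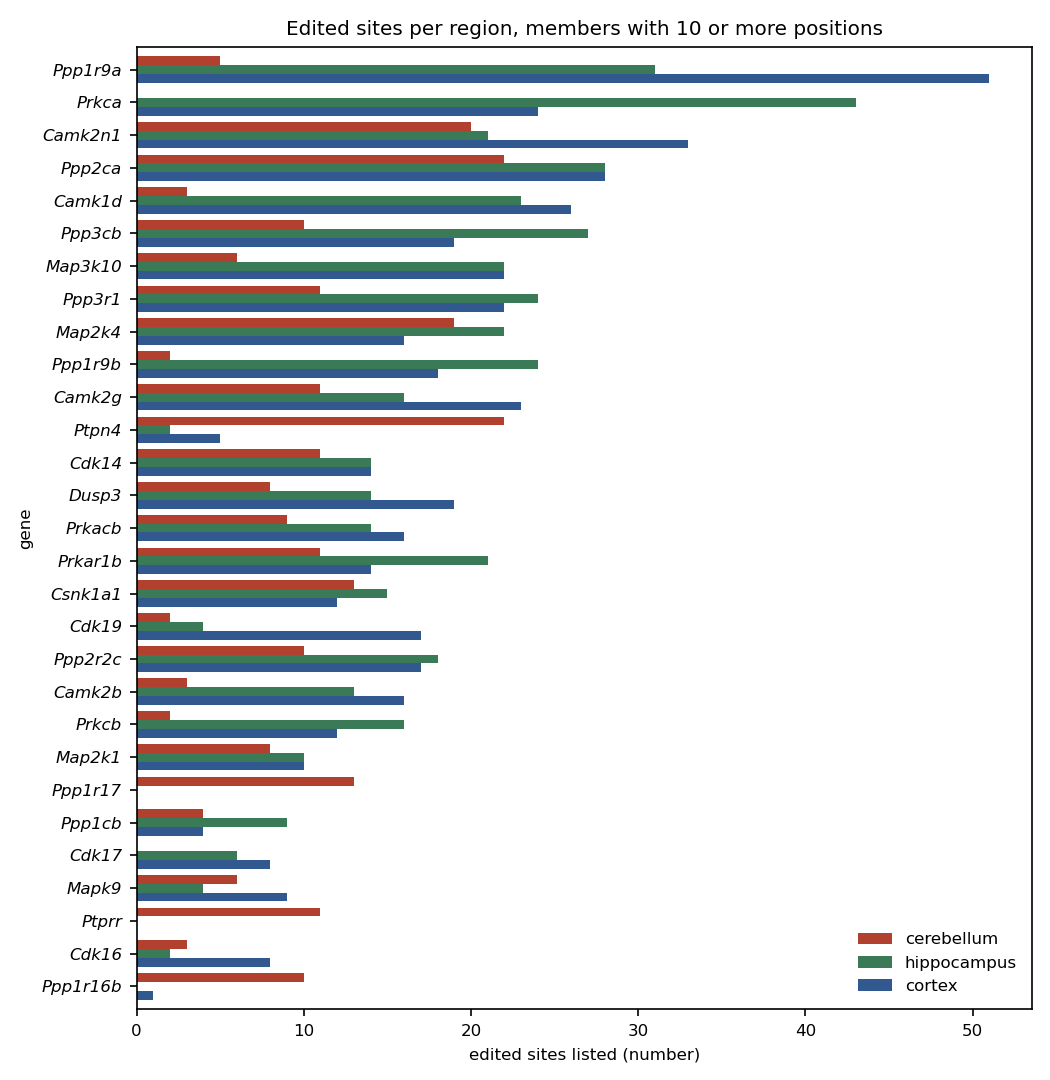
Number of edited sites (horizontal axis) in each region for the 29 kinase and phosphatase genes with 10 or more positions, in order of positions; bars are cerebellum, hippocampus and cortex from top to bottom, 1 list each, without error. Prkca and Cdk17 have no bar in cerebellum, Ppp1r17 and Ptprr have one in cerebellum only, and Ptpn4 has 22, 2 and 5 sites.

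The Prk genes encode protein kinase C isoforms and subunits of protein kinase A and AMP-activated kinase. Among them, protein kinase C genes had unlike numbers of sites in the regions. Prkca, the calcium-dependent protein kinase C alpha, had 0 sites in cerebellum, 43 in hippocampus and 24 in cortex. Its levels averaged 3.26% in hippocampus and 3.66% in cortex, and 23 of its 47 positions were listed in hippocampus only. Its highest site, on chromosome 11 at 107938782 (mm10), was edited at 9.43% in hippocampus and 6.10% in cortex. Prkcb, the beta isoform, had 2 sites in cerebellum, 16 in hippocampus and 12 in cortex. Both genes were thus sparse or missing in cerebellum and had the most sites in hippocampus.

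Subunits of protein kinase A were listed more evenly. Prkar1b, a regulatory subunit that holds the kinase inactive until cyclic AMP binds, had 11 sites in cerebellum, 21 in hippocampus and 14 in cortex, and 10 of its 21 positions were in all 3 lists. Prkacb, a catalytic subunit, had 9, 14 and 16 sites, with mean levels of 2.27%, 2.10% and 2.27%. Prkaca, the other main catalytic subunit, had a single position in every region, edited at 49.4% in cerebellum, 50.8% in hippocampus and 43.6% in cortex. A many-site, low-level pattern and a single-site, high-level pattern therefore occurred in closely related subunits. Together the 11 Prk genes had 35 sites in cerebellum, 103 in hippocampus and 76 in cortex.

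CaM kinases and their inhibitors had 46 sites in cerebellum, 86 in hippocampus and 119 in cortex over 9 genes. Camk2n1, which encodes an inhibitor protein of CaM kinase II, had 20, 21 and 33 sites. At the 19 positions listed in both cerebellum and cortex its level was lower in cerebellum at all 19, with means of 3.10% in cerebellum and 5.21% in cortex. The median log2 ratio was -0.90 (range -1.91 to -0.02) and 7 of these positions were at least 2-fold lower. At the 18 positions shared with hippocampus the means were 3.21% in cerebellum and 4.68% in hippocampus, and 15 were lower in cerebellum. Hippocampus and cortex differed less, with 4.71% and 5.21% over 20 positions and a median log2 ratio of -0.23. For example, the site on chromosome 4 at 138457776 was edited at 4.79% in cerebellum, 7.82% in hippocampus and 9.19% in cortex. The 11 positions of Camk2n1 closest to the gene's 3′ end, all downstream of the last position that regions shared, were listed in cortex only, a split chosen after the values were seen.

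The beta, gamma and delta subunits of the kinase had their fewest sites in cerebellum and their most in cortex. Camk2b, the neuronal beta subunit that binds actin, had 3 sites in cerebellum, 13 in hippocampus and 16 in cortex. At its 3 positions shared by cerebellum and cortex the means were 3.14% in cerebellum and 7.22% in cortex. Camk2g, the gamma subunit, had 11, 16 and 23 sites, and its 10 positions shared by cerebellum and cortex averaged 4.57% and 4.77%. Camk2d, the delta subunit, had 1, 2 and 5 sites. The second inhibitor gene, Camk2n2, had 7, 7 and 8 sites, and its 6 positions shared by cerebellum and cortex averaged 3.65% and 4.31%. Camk1d, a CaM kinase of another class, had 3 sites in cerebellum, 23 in hippocampus and 26 in cortex. At the 3 positions shared by cerebellum and cortex the means were 13.8% and 13.7%, and the site on chromosome 2 at 5294484 was edited at 25.4% in cerebellum, 19.7% in hippocampus and 29.2% in cortex. Its next highest site, at 5298788, was not listed in cerebellum and was edited at 13.5% in hippocampus and 18.8% in cortex. Fewer listed sites in cerebellum thus went with lower levels at shared sites in Camk2n1 and Camk2b, and with nearly equal means in Camk1d.

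MAP kinase cascade genes numbered 14 and had 51 sites in cerebellum, 71 in hippocampus and 80 in cortex. Map3k10, a mixed-lineage kinase at the top of the JNK branch, had 6, 22 and 22 sites. Map2k4, the kinase that activates JNK, had 19, 22 and 16, and 11 of its 26 positions were in all lists. The JNK gene Mapk9 had 6, 4 and 9 sites. Map2k1, the MEK kinase that activates ERK, had 8, 10 and 10 sites and was edited less in cerebellum: its 6 positions shared with cortex averaged 2.96% in cerebellum and 5.08% in cortex, and 5 of the 6 were lower. The 6 shared by cerebellum and hippocampus averaged 3.20% in cerebellum and 4.72% in hippocampus, and 5 of the 6 were lower. Within the JNK branch, therefore, the region with the fewest sites was cerebellum for Map3k10, hippocampus for Mapk9 and cortex for Map2k4.

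Cyclin-dependent kinases had 18 sites in cerebellum, 32 in hippocampus and 57 in cortex over 10 genes. Cdk14, a kinase of the Wnt pathway that pairs with membrane-bound cyclin Y, was edited more in cerebellum. It had 11, 14 and 14 sites, with mean levels of 8.90% in cerebellum, 3.58% in hippocampus and 3.72% in cortex. At the 6 positions shared by cerebellum and cortex the means were 11.9% in cerebellum and 5.62% in cortex, 5 were higher in cerebellum, and the median log2 ratio was 0.89. At the 6 shared by cerebellum and hippocampus the means were 11.7% in cerebellum and 4.78% in hippocampus, and all 6 were higher in cerebellum. The widest gap was on chromosome 5 at 4806519, edited at 14% in cerebellum, 1.44% in hippocampus and 1.21% in cortex. At 18 nt from it, position 4806501 was edited at 25.5% in cerebellum, 14.02% in hippocampus and 18.4% in cortex, so that neighbouring sites of the same transcript differed in their regional contrast. Cdk19, a kinase of the Mediator complex, had 2, 4 and 17 sites, and Cdk17 had 0, 6 and 8. Cdk16, a close relative of Cdk17, had 3, 2 and 8. Cdk5r2, an activator of Cdk5, had 2, 4 and 3 sites, and its 3 positions shared by hippocampus and cortex averaged 2.79% and 2.04%.

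The remaining serine/threonine kinases had 27 sites in cerebellum, 27 in hippocampus and 38 in cortex over 13 genes. Csnk1a1, casein kinase 1 alpha, which primes beta-catenin for degradation, had 13, 15 and 12 sites with mean levels of 2.48%, 2.18% and 2.33%, an even spread over the regions. Gsk3b, which phosphorylates beta-catenin after that priming, had 3, 2 and 4 sites, and Gsk3a had 1 position edited at 1.52% in cerebellum, 1.78% in hippocampus and 4.30% in cortex. Stk25, a kinase of the Golgi, had 2, 5 and 4 sites. Stk39, which phosphorylates chloride cotransporters, had 3 positions listed in cerebellum and cortex and 0 in hippocampus, with means of 6.72% in cerebellum and 5.76% in cortex.

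**Figure D2:**
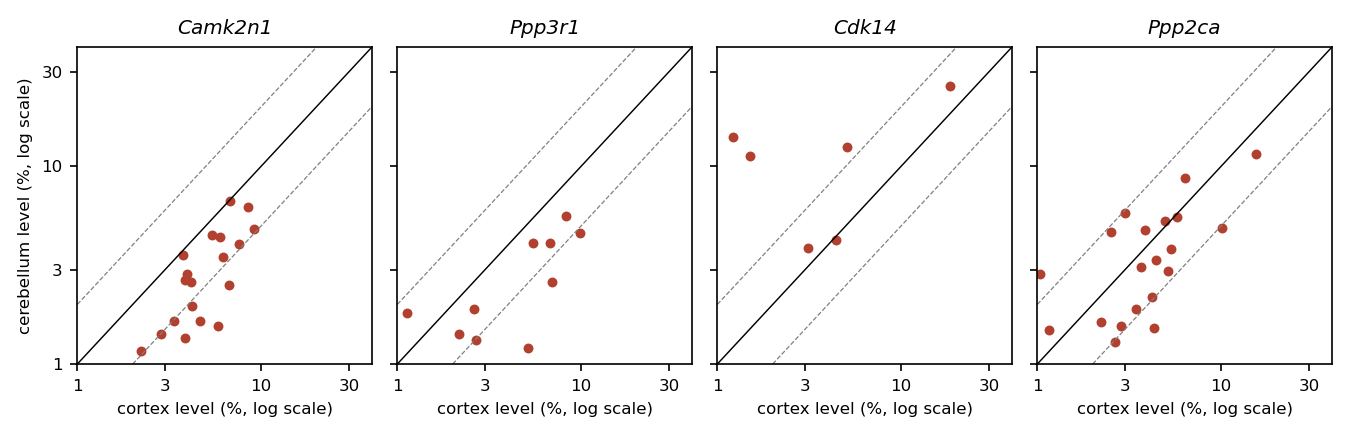
Editing level in cerebellum (vertical axis, percent, log scale) against cortex (horizontal axis, percent, log scale) at the positions both regions list, for 4 genes; each point is 1 position, the solid line marks equal levels and the dashed lines a 2-fold difference. All 19 points of Camk2n1 and 9 of 10 of Ppp3r1 lie below the solid line, 5 of 6 of Cdk14 lie above it, and Ppp2ca has points on either side.

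The 5 catalytic subunits of serine/threonine phosphatases had 39 sites in cerebellum, 67 in hippocampus and 54 in cortex, and Ppp2ca held 41.5% of their 82 positions. Ppp2ca, the main catalytic subunit of protein phosphatase 2A, had 22 sites in cerebellum, 28 in hippocampus and 28 in cortex, and 19 of its 34 positions were in all lists. That share of 55.9% was the largest among the 29 genes with 10 or more positions, and over all genes 19.0% of positions were in all lists. Its highest site, on chromosome 11 at 52122190, was edited at 11.5% in cerebellum, 12.5% in hippocampus and 15.5% in cortex. Ppp2cb, its paralog, had 2, 3 and 2 sites. Ppp1cb, a catalytic subunit of protein phosphatase 1, had 4, 9 and 4 sites, all at low levels with means of 1.39%, 1.65% and 1.82%.

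Of calcineurin, the calcium-activated phosphatase, Ppp3cb and Ppp3r1 were edited less in cerebellum than in hippocampus at nearly all shared positions. Shared positions of Ppp3ca, a catalytic subunit that the rule leaves out, were not compared. Ppp3cb, a catalytic subunit, had 10 sites in cerebellum, 27 in hippocampus and 19 in cortex. At its 10 positions shared by cerebellum and hippocampus the means were 2.72% in cerebellum and 4.36% in hippocampus, with 9 of 10 lower in cerebellum. Against cortex the picture was mixed, with 4 of 8 shared positions higher in cerebellum. Ppp3r1, the calcium-binding regulatory subunit, had 11 sites in cerebellum, 24 in hippocampus and 22 in cortex. Its 10 positions shared by cerebellum and cortex averaged 2.86% in cerebellum and 5.10% in cortex, with 9 lower and a median log2 ratio of -0.67. All 11 shared by cerebellum and hippocampus were lower in cerebellum, with means of 2.71% and 5.22%. Its site at 17198932 on chromosome 11 was edited at 4.59% in cerebellum, 12.2% in hippocampus and 9.86% in cortex. Hippocampus and cortex did not stand apart for Ppp3r1, with 10 of 19 shared positions lower in hippocampus and a median log2 ratio of -0.02. Ppp3cb was higher in hippocampus than in cortex at 11 of 15 shared positions, with means of 4.08% and 3.54%.

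Targeting subunits that tether protein phosphatase 1 to actin in dendritic spines carried many sites outside cerebellum. Ppp1r9a, which encodes neurabin, had 5 sites in cerebellum, 31 in hippocampus and 51 in cortex, and with 56 positions it had the most of the 102 genes. Ppp1r9b, which encodes spinophilin, had 2, 24 and 18 sites. The 4 positions of Ppp1r9a shared by cerebellum and cortex averaged 6.29% in cerebellum and 9.22% in cortex, with 2 higher and 2 lower. Its highest cerebellar site, on chromosome 6 at 5160820, was edited at 9.52% in cerebellum, 8.20% in hippocampus and 12.2% in cortex. Of its 56 positions, 23 were listed in cortex only.

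Some other phosphatase 1 subunits and inhibitors were listed mostly or only in cerebellum. Ppp1r17, a substrate of cyclic GMP-dependent kinase that is known from Purkinje cells, had 13 sites in cerebellum and 0 in hippocampus and cortex, with levels of 1.12% to 9.09%. Ppp1r16b, a membrane-linked targeting subunit, had 10 sites in cerebellum, 0 in hippocampus and 1 in cortex. Ppp1r1b, which encodes the dopamine-regulated inhibitor DARPP-32, had 3 sites in cerebellum, edited at 2.13%, 1.06% and 3.03%, and 0 in the other regions. Unlike these 3 genes, Ppp1r9a, Ppp1r9b and the catalytic Ppp1cb were listed in all regions. The remaining Ppp1r genes went the other way. Ppp1r7 had 0 sites in cerebellum, 1 in hippocampus and 6 in cortex, and Ppp1r2 had 1, 2 and 3. Ppp1r12a, Ppp1r12b, Ppp1r16a and Ppp1r3c were not listed in cerebellum.

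Regulatory subunits of protein phosphatase 2A showed contrasts in both directions. Ppp2r2c, a brain B subunit, had 10 sites in cerebellum, 18 in hippocampus and 17 in cortex, and 10 of its 19 positions were in all lists. Its 10 positions shared by cerebellum and hippocampus averaged 2.57% in cerebellum and 3.85% in hippocampus, with 8 lower, 5 of them 2-fold or more. Against cortex, 5 of its 10 shared positions were lower in cerebellum and 5 higher. Ppp2r2a, another B subunit, had 3, 5 and 5 sites. All 3 cerebellar positions of Ppp2r2a were edited more in cerebellum, with means of 4.66% in cerebellum, 2.43% in hippocampus and 1.86% in cortex. The 24 genes of phosphatase regulatory subunits held 212 positions, 26.4% of them in Ppp1r9a. In cortex alone, Ppp1r12b, a myosin phosphatase subunit, and Ppp2r5d, a B subunit of phosphatase 2A, had 3 sites each.

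**Figure D3:**
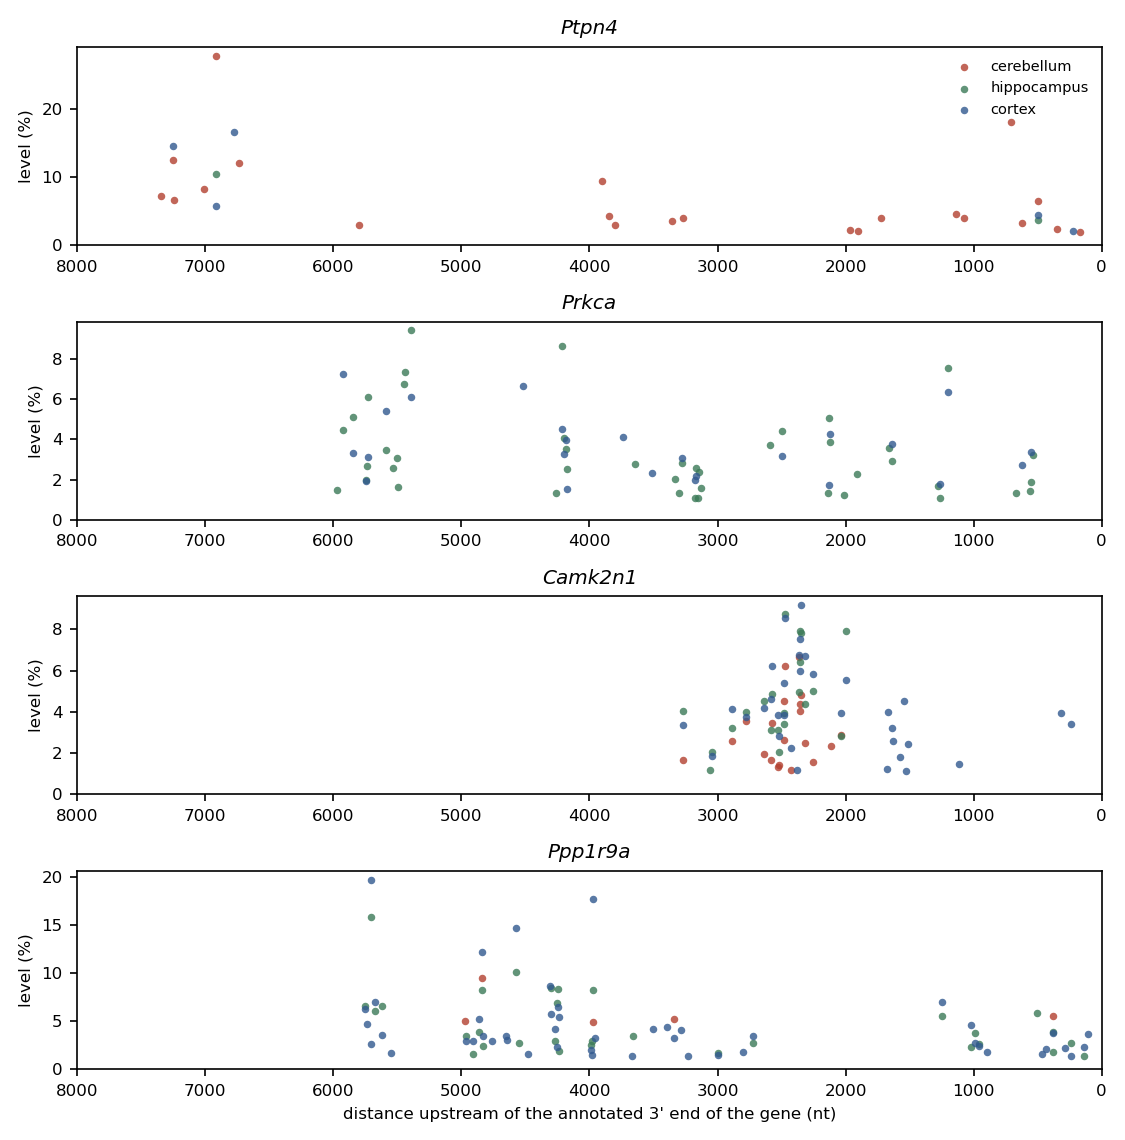
Editing level (percent, vertical axis) of sites of 4 genes by distance in nt upstream of the RefSeq 3′ end of the gene (horizontal axis, the end at the right), coloured by region. Each point is 1 site of 1 list. Cortical Ppp1r9a sites at 108113 nt or more from the end lie beyond the axis and are not drawn. Ptpn4 points are mostly cerebellar, Prkca has none from cerebellum, the 11 rightmost Camk2n1 points are all cortical, and Ppp1r9a has 5 cerebellar points among many more hippocampal and cortical ones.

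Non-receptor tyrosine phosphatases were the 1 role group with more sites in cerebellum than in either other region. The 5 Ptpn genes had 25 sites in cerebellum, 4 in hippocampus and 12 in cortex, and 22 of the cerebellar ones belonged to Ptpn4, a phosphatase known to act on glutamate receptor signalling in Purkinje cells. Ptpn4 had 2 sites in hippocampus and 5 in cortex, and 19 of its 24 positions were listed in cerebellum only. At the 3 positions shared by cerebellum and cortex it averaged 15.6% in cerebellum and 8.26% in cortex, with 2 of 3 higher. Ptprr, a receptor-type phosphatase that acts on MAP kinases, had 11 sites in cerebellum and 0 in hippocampus and cortex. Its levels averaged 8.83% ± 7.15 (SD over the 11 sites) and reached 28.9% on chromosome 10 at 116274157. Ptprm, an adhesion-linked receptor phosphatase, had 2 sites in cerebellum and 0 elsewhere.

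The other tyrosine phosphatases among the 102 genes were listed mainly outside cerebellum. Ptpro had 0 sites in cerebellum, 3 in hippocampus and 3 in cortex, Ptprd, which organises synapses, had 1, 1 and 5, and Ptprt had 4 in cortex only. Ptpn11, which encodes SHP2, had 3, 0 and 4 sites. Ptpn5, the striatal-enriched phosphatase STEP, and Ptpn3 had 0, 1 and 1 each. Within this set, cerebellar sites of tyrosine phosphatases thus rested on Ptpn4 and Ptprr, which held 33 of the 39 cerebellar Ptpn and Ptpr sites. The receptor phosphatase Ptprz1, which the rule leaves out, had 35 sites in cerebellum, 33 in hippocampus and 43 in cortex.

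Dual-specificity phosphatases had 11 sites in cerebellum, 19 in hippocampus and 27 in cortex over 5 genes, and Dusp3 held most of them. Dusp3, which dephosphorylates ERK and JNK, had 8, 14 and 19 sites, and its 12 positions shared by hippocampus and cortex averaged 4.74% and 4.86%. A run of 6 Dusp3 positions lay exactly 4 nt apart, on chromosome 11 between 101973921 and 101973941, with 3 of them listed in cerebellum, 6 in hippocampus and 5 in cortex. Merging sites within 10 nt left 27 Dusp3 sites over the lists. Dusp28, an atypical member, had 3, 4 and 4 sites. Dusp1, an immediate early gene that is induced by neuronal activity, had 3 sites in cortex and 0 in the other regions. Dusp18 had 1 in cortex and Dusp8 1 in hippocampus. Cdk13, a kinase of transcription elongation, was the other gene listed in hippocampus only, with 1 site.

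Editing levels of kinase and phosphatase sites were low in all regions and close to those of all genes. The median level was 2.97% in cerebellum, 2.64% in hippocampus and 2.96% in cortex, against 3.36%, 2.82% and 2.91% over all genes. Levels of 10% or more were reached at 6.89%, 5.24% and 6.32% of sites, against 8.99%, 6.14% and 6.54% over all genes. Sites listed in all regions had medians of 3.07% in cerebellum, 3.99% in hippocampus and 4.15% in cortex, while the same class over all genes had 3.99%, 3.92% and 4%. In cerebellum, widely shared kinase and phosphatase sites were thus edited at a level near that of the 2.94% median of sites it alone listed.

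**Figure D4:**
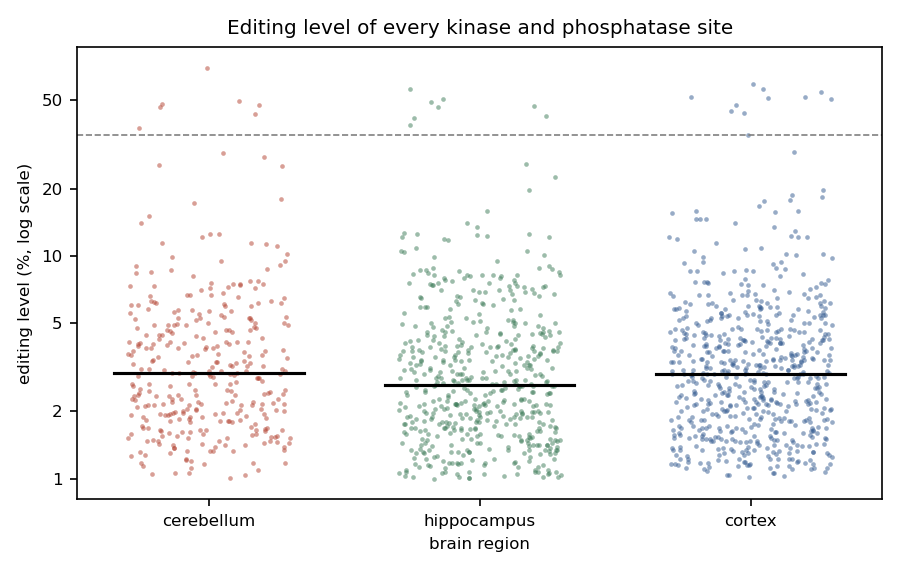
Editing level (percent, log scale) of every kinase and phosphatase site in each region; each point is 1 site, with horizontal jitter, the black bar is the median (2.97% in cerebellum, 2.64% in hippocampus and 2.96% in cortex) and the dashed line marks 35%. Few sites stand above the dashed line in each region: 7 in cerebellum, 8 in hippocampus and 10 in cortex.

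A small class of sites stood far above the others. Of the 887 positions, 12 reached 35% in any region (1.35%, against 1.09% of all positions), in 8 genes, and 5 of the 12 were in all lists. The highest level, 70.0%, was in cerebellum at 120019643 on chromosome 2 in Mapkbp1, a scaffold that binds JNK, where hippocampus had no listed site and cortex 56.1%. Another Mapkbp1 position, 120026698, was edited at 48.2% in cerebellum, 38.8% in hippocampus and 51.1% in cortex. All 3 listed positions of Mapkbp1 belonged to this class.

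Mark4, a microtubule-affinity regulating kinase, had a site on chromosome 7 at 19451601 edited at 43.1% in cerebellum, 47.2% in hippocampus and 50.7% in cortex. Mapk10, the neuronal JNK3, had a site on chromosome 5 at 102996701 with 46.6%, 41.4% and 44.8%. At the 5 positions of this class listed everywhere, the single Prkaca position among them, the largest log2 ratio between any pair of regions was 0.40 in size. That ratio was of hippocampus over cortex. Over all shared kinase and phosphatase positions, the SD of the log2 ratios was 0.90 for cerebellum over cortex, 0.63 for hippocampus over cortex and 0.82 for cerebellum over hippocampus. Most of those positions had far lower levels, with medians of 3.30% in hippocampus and 3.34% in cortex where these 2 regions shared them.

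The rest of the class was seen in fewer regions. Ptpro reached 46.7% in hippocampus and 51.4% in cortex on chromosome 6 at 137449888. Mapk1ip1l, whose product is named after a MAP kinase partner, had 42.6% in hippocampus and 34.8% in cortex at its single position. Stk17b, an apoptosis-linked kinase, had 37.5% in cerebellum only. These sites were mostly isolated: 1 of the 12 had another listed position within 50 nt, against 60.8% of all kinase and phosphatase positions. Over all genes, 37 of 284 such high positions had a neighbour that close. Whether an m6A lies beside each of them was not tested.

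At positions that cerebellum and cortex share, sites of the 102 genes were edited less in cerebellum more often than sites of all genes. The 6 genes left out by the rule are not in the counts below, and their shared positions were not compared. Over all sites of each list, Camk2a, Ptprz1 and Cdk5r1 had higher mean levels in cerebellum than in cortex. Prkce, Camkk2 and Ppp3ca had lower ones. Cerebellum and cortex shared 209 positions, which were 62.6% of the cerebellar and 33.0% of the cortical sites. Over all genes these shares were 58.2% and 37.1%. The median level at them was 3.09% in cerebellum and 3.99% in cortex, with a median log2 ratio of -0.24, against 0.06 over all genes. Cerebellum was higher at 74 of the 209 (35.4%, against 52.6% over all genes). It was at least 2-fold lower at 42 (20.1%, against a background of 12% of shared sites) and at least 2-fold higher at 13 (6.22%, against a background of 15.1%). Among sites of 5% or more in both regions, 2 positions were at least 2-fold higher and 1 lower, and the median log2 ratio was -0.16. That minimum drops a position when either level is below 5%, which by itself removes 2-fold differences. These counts therefore cannot decide whether the excess of lower positions holds among more highly edited sites.

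The sites came from 54 genes, 22 of which had a position at least 2-fold lower in cerebellum and 10 one at least 2-fold higher. Over all genes, 418 of 1636 had a position at least 2-fold lower and 525 one at least 2-fold higher. With 1 value a gene the median log2 ratio was -0.17, against 0.10 over all genes. The sites are not independent of each other, and Camk2n1, Ppp2ca and Ppp3r1 alone gave 49 of the 209. Without these 3 genes, a choice made after seeing the data, the median log2 ratio was -0.16, with 12 positions at least 2-fold higher and 28 lower. Kinase groups had a median of -0.26 over 127 positions and phosphatase groups -0.23 over 82. By role, the CaM kinase group, which lacks the left-out Camk2a and Camkk2, had -0.45 over 43 positions. The phosphatase regulatory subunits had -0.42 over 39, the Prk genes -0.32 over 22 and the MAP kinase cascade -0.17 over 34. The Cdk group stood on the other side with 0.39 over 12, of which Cdk14 gave 6.

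Cerebellum and hippocampus differed in the same sense, a comparison that shares the cerebellar list with the one before. They shared 198 positions, 59.3% of the cerebellar and 37.1% of the hippocampal sites, against 49.9% and 42.3% over all genes. The median levels were 2.96% in cerebellum and 3.74% in hippocampus, with a median log2 ratio of -0.22 against 0.04 over all genes. Cerebellum was higher at 69 positions (34.8%, against 51.9% over all genes). It was at least 2-fold lower at 28 (14.1%, against a background of 11.4%) and at least 2-fold higher at 13 (6.57%, against a background of 15.2%). Among sites of 5% or more in both regions, 2 positions were at least 2-fold higher and 0 lower, with a median log2 ratio of -0.12. Among sites of 10% or more the median had the opposite sign at 0.066. That value rests on few positions, since cerebellum had 23 sites of 10% or more, shared or not. These minimums also remove 2-fold differences by themselves, so they cannot decide whether the contrast holds at higher levels. With 1 value a gene the median was -0.10, against 0.10 over all genes.

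Hippocampus and cortex differed least. They shared 383 positions, 71.7% of the hippocampal and 60.5% of the cortical sites, against 69.7% and 52.5% over all genes. The median log2 ratio was -0.02, the same as over all genes, and the SD of the log2 ratios was 0.63 against 0.71 over all genes. Hippocampus was at least 2-fold higher at 18 positions (4.70%, against a background of 7.37%) and at least 2-fold lower at 25 (6.53%, against a background of 8.17%).

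**Figure D5:**
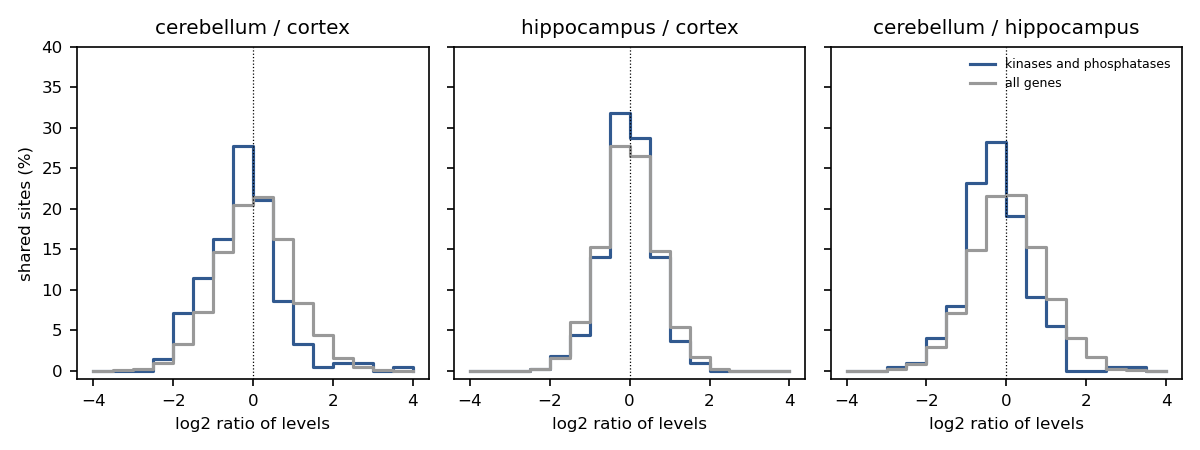
Share of shared positions (percent, vertical axis) by log2 ratio of editing levels (horizontal axis, bins of 0.5) for cerebellum over cortex, hippocampus over cortex and cerebellum over hippocampus; the blue line is kinases and phosphatases (209, 383 and 198 positions), the grey line all genes and the dotted line equal levels. In both cerebellar comparisons the blue line sits left of the grey one, with medians of -0.24 and -0.22 against 0.06 and 0.04.

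In position along the transcript these genes resembled the rest. Of 875 positions inside the RefSeq span of their gene, 781 (89.3%) lay within 5000 nt of its 3′ end, against 87.0% over all genes, at a median distance of 1633 nt against 1519 nt. Another listed position lay within 50 nt for 60.8% of them, against 59.3% over all genes. For Ppp2ca, 10 of the 34 positions lay outside the RefSeq span of the gene. Of all 887 positions, 176 (19.8%) were in all lists, 207 (23.3%, against 17.1% over all genes) in hippocampus and cortex without cerebellum, 103 (11.6%, against 15.5%) in cerebellum only, 129 (14.5%, against 12.8%) in hippocampus only and 217 (24.5%, against 26.2%) in cortex only. Exon and untranslated-region annotation and the bases around the sites were not used here.

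Some of the 6 genes left out by the rule encode partners of those described. Ppp3ca, the other brain calcineurin catalytic subunit, had 12 sites in cerebellum, 34 in hippocampus and 25 in cortex, and Prkce, protein kinase C epsilon, had 12, 59 and 63. Camk2a, the alpha subunit of CaM kinase II, had 25, 26 and 25 sites and mean levels of 7.38% in cerebellum, 3.40% in hippocampus and 3.72% in cortex. Those means were taken over all sites of each list, where Camk2n1 had 3.07%, 4.54% and 4.16%.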

How the data were processed

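Bulk poly(A) RNA-seq of APOBEC1-YTH and APOBEC1-YTHmut mouse tissue was aligned with STAR 2.7.5 to mm10, per the submitters' processing notes. APOBEC1-YTHmut libraries served as background in site calling, per the labels. How sites were called and libraries pooled is not given in the sources used here. The authors deposited 1 list a region, whose value per site is a fraction, taken here as the share of edited reads in the region's APOBEC1-YTH libraries combined and printed as percent. Depth is therefore unknown and no interval covers reads or animals. The exact binomial intervals cover counting of genes only.

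Positions are 1-based in mm10. All 66 listed positions, none of a kinase or phosphatase gene, that fell in RefSeq promoter sequences were a C preceded by A and, before that, A or G, which set the coordinate base. Symbols were matched to RefSeq GRCm38.p6 for all 102 genes, for spans and 3′ ends. Identical nucleotide and strand made a site shared, and levels were compared as log2 ratios without a pseudocount; 2-fold marks a large difference. No test was run, since the lists hold no replicate.

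The genes, role groups, marker lists and lists of other kinases and phosphatases were chosen with earlier results of these data known. Named were, per role group, the 4 genes with the most positions; per pair of regions, the 4 highest and 4 lowest median log2 ratios among genes with 3 or more shared positions; per region, the 4 with the most sites and none elsewhere; the 10 highest sites, 1 a gene; the 4 largest shares of positions in all regions; and up to 2 genes of each other list. Some genes this rule names are not reported here. Relatives and paralogs named beside these, such as Camk2d, Camk2n2 and Gsk3a, and the cortical examples were added after their values were seen. On simulated data, 10626 planted shared sites were found, as were 200 of 200 planted 4-fold differences, for cerebellum against cortex. The simulated cerebellar list was a copy of part of the cortical list without added noise. These results therefore check the code and not detection in the real lists. Alternatives were minimum levels of 5% and 10%, leaving out sites at 35% or more, merging or sharing within 10 nt, 2 sites a gene, scaling to the same median, 1 value a gene and leaving out symbols that name no kinase or phosphatase. Figures were drawn with matplotlib 3.10.9; intervals came from scipy 1.17.1, and tables from pandas 2.3.3 and numpy 2.4.6 under Python 3.11.15.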

Additional observations from a re-analysis of the deposited data

How the results depend on the processing

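Of 180 main values recomputed under the alternatives, 51 moved, a count when it changed by more than 1.5 times and a share or median when it left its 95% interval over sites; those are given here. With sites of 5% or more, sites numbered 85 in cerebellum, 110 in hippocampus and 145 in cortex, genes 40, 41 and 55, and medians were 7.27%, 7.58% and 6.79%. With 10% or more, sites numbered 23, 28 and 40, genes 14, 23 and 27, and medians were 18.1%, 13.1% and 15.9%. At 5%, 45.9% of cerebellar sites were in cortex, 26.9% of cortical sites in cerebellum, 55.2% of cortical sites in hippocampus, 42.4% of cerebellar sites in hippocampus and 32.7% of hippocampal sites in cerebellum. At 10%, the first 4 of these shares were 47.8%, 27.5%, 52.5% and 43.5%. Positions at least 2-fold higher and lower at 5% numbered 2 and 1 for cerebellum against cortex, 0 and 2 for hippocampus against cortex, and 2 and 0 for cerebellum against hippocampus; at 10% they numbered 0 and 0, 0 and 0, and 1 and 0. At 10% the median log2 ratios were -0.085, -0.11 and 0.066, the last with the opposite sign to the -0.22 of all sites. Sharing within 10 nt put 37.0% of cortical sites in cerebellum, 77.3% of hippocampal sites in cortex and 41.8% of hippocampal sites in cerebellum. Merging sites within 10 nt left 9 positions at least 2-fold higher in hippocampus than in cortex. With 1 value a gene the cerebellum over hippocampus median was -0.10. Without Camk2n1, Ppp2ca and Ppp3r1, chosen after seeing the data, 56.9% of cerebellar sites were in cortex, 29.1% of cortical in cerebellum, 53.0% of cerebellar in hippocampus and 32.3% of hippocampal in cerebellum. Without Camk2n1 alone the cerebellum over cortex median was -0.19, which did not count as moved. The cause of these shifts was not tested beyond the smaller number of sites that a higher minimum leaves. No paired analysis was possible because the lists hold 1 pooled value per site and region, and for the same reason leaving out each library was not run. Unknown depth limits every statement on sites that are not listed.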

Other observations

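Kinases and phosphatases with other symbols, taken from lists of pathway genes, had more sites in cortex than in cerebellum in all 8 lists, as did all genes together, with 11391 sites in cerebellum and 17878 in cortex. Receptor tyrosine kinases had 24 sites in cerebellum, 80 in hippocampus and 92 in cortex over the 10 of 26 genes that were listed. Ntrk2, the receptor of brain-derived neurotrophic factor, had 21, 44 and 61 of these, and Epha4, an ephrin receptor, had 0, 28 and 23. Non-receptor tyrosine kinases had 3, 25 and 25 sites over 4 of 13 genes, with Jak1, which signals for cytokine receptors, at 2, 9 and 11 and Ptk2b, a calcium-sensitive kinase, at 0, 10 and 6. Ntrk2 thus held most of the cerebellar sites of the tyrosine kinases.

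Kinases of the PI3K, AKT and mTOR pathway had 20 sites in cerebellum, 23 in hippocampus and 39 in cortex over 9 of 14 genes, with Mtor at 4, 3 and 6. RAF and ribosomal S6 kinases had 5, 3 and 8 sites over 5 of 13 genes. PAK, ROCK and LIM kinases, which act on actin, had 14, 23 and 33 over 8 of 12, with Rock2 at 2, 12 and 15 and Cdc42bpa at 8, 3 and 8. Other neuronal serine/threonine kinases had 50, 53 and 76 over 24 of 36, and Sbk1, a brain SH3-binding kinase, held 26 of the cerebellar sites with 0 in hippocampus and 1 in cortex, while Dclk1, a microtubule-linked kinase, had 3, 11 and 18. Kinase anchoring proteins had 12, 12 and 24 over 5 of 10, with Akap6 at 8, 7 and 17. Phosphatases with other symbols had 93, 100 and 139 over 17 of 39, with the phosphoinositide phosphatases Synj1 at 29, 39 and 43 and Inpp5f at 12, 19 and 17.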
